A study of Mus musculus with 25 samples.

Results

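miR-149-5p, a single miRNA, was read on 25 one-colour arrays of mouse mammary tissue. It was the 1 of 1122 mouse miRNAs on the array whose name in the scanner files is mmu-miR-149-5p, and it was chosen by its measured levels in these same tumours, lowest in Met and highest in Trp53. Its order over the tumour genotypes is therefore described here without a test. Its tests below concern other contrasts: tumours against normal gland, spindloid against other pathology within a genotype, and parity within a genotype. The first averages the genotype levels that the choice used, so it is not independent of that choice. Met against Trp53 tumours was fitted for all 330 miRNAs tested, miR-149-5p included, but its own test result there is not used.

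All tissue came from female mice of the FVB strain. The normal group held 2 pools of mammary gland from wild-type mice, 1 pool multiparous and 1 nulliparous. The 7 Met tumours carried MMTV-Met, a transgene of the receptor tyrosine kinase Met under the mouse mammary tumour virus promoter. The 8 MetTrp53 tumours were MMTV-Met;Trp53fl/+ and the 8 Trp53 tumours were Trp53fl/+, and the series' design text adds Cre to both, which deletes the floxed copy of the p53 gene. The promoter that drives Cre, the state of the remaining Trp53 allele and the age of the mice are not given in the sources used here. Of the Met tumours 6 were multiparous, against 2 of the MetTrp53 and 2 of the Trp53 tumours, so genotype and parity were not balanced. Stated as nulliparous were 6 MetTrp53 and 3 Trp53 tumours, and parity was not stated for 1 Met and 3 Trp53 tumours. Pathology was stated for 22 tumours, of which 7 were spindloid. Whether each tumour is from a separate mouse is not stated, and among the Trp53 tumours 2 title numbers occur on 2 tumours each. The tests treat the arrays as independent, so tumours from a shared mouse could make the standard errors and p-values too small. Part of the spread among arrays may also be technical.

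A mature miRNA guides the silencing complex to messenger RNAs that pair with its seed, the bases 2 to 8. A hairpin precursor gives a mature strand from either arm, named 5p and 3p, and the 2 strands pair with different targets. miR-149 is encoded in an intron of Gpc1, the gene of the cell-surface proteoglycan glypican 1. The 5p strand is widely described as lowered in carcinomas, and the 3p strand as p53-responsive in melanoma cells.

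In RefSeq's table for GRCm38.p6 the hairpin lies on the plus strand at chr1:92850378-92850443, within the span of Gpc1 on chromosome 1 from 92831645 to 92860211. Both strands of the hairpin, and the strands of miR-221 and miR-222 that followed miR-149-5p most closely over the tumours, are shown 5′ to 3′. Capitals mark the 2 mature strands in the hairpin and the seed in the mature miRNAs.
Mir149 hairpin: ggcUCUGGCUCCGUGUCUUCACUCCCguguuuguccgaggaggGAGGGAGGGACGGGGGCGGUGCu
miR-149-5p, chr1:92850381-92850403: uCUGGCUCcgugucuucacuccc
miR-149-3p, chr1:92850421-92850442: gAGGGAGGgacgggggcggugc
miR-221-3p, chrX:19146307-19146329: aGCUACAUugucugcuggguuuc
miR-222-3p, chrX:19146901-19146923: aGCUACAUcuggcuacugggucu

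Of the other mature mouse miRNAs in a table of 1679 names, 0 share the seed of miR-149-5p, so it has no seed family there. miR-221-3p and miR-222-3p share a seed with each other and not with miR-149-5p. The strands of miR-149 differ in composition: the 5p strand is 60.9 percent G and C and its longest run of G is 2 bases, while the 3p strand is 81.8 percent G and C with a run of 5. Of all mature names in that table, 24.5 percent are at least as rich in G and C as the 5p strand and 1.07 percent as the 3p strand.

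The array carried 40 spots of miR-149-5p, as 20 spots of each of 2 probes. The probe A_54_P2322 gave nearly all of the usable signal. On unscaled spot intensities, its mean was 46.3 and 80.7 on the normal arrays, ran from 5.33 to 48.2 over the Met arrays with a median of 10.8, from 15.7 to 82.5 over the MetTrp53 arrays with a median of 61.2, and from 29.7 to 99.7 over the Trp53 arrays with a median of 74.7. At least 0.5 of its spots were well above background on 4 of 7 Met arrays and on all arrays of the other groups. On Met tumour 7, an adenocarcinoma, 0 of its 19 usable spots were, and on Met tumour 1 the count was 3 of 19. The other probe, A_54_P2321, was dim: at least 0.5 of its spots were well above background on 0 of 7 Met, 2 of 8 MetTrp53, 4 of 8 Trp53 and 1 of 2 normal arrays. By the scanner software's call, which reads both probes, miR-149-5p was detected on 24 of 25 arrays, the exception being Met tumour 7.

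**Figure D1:**
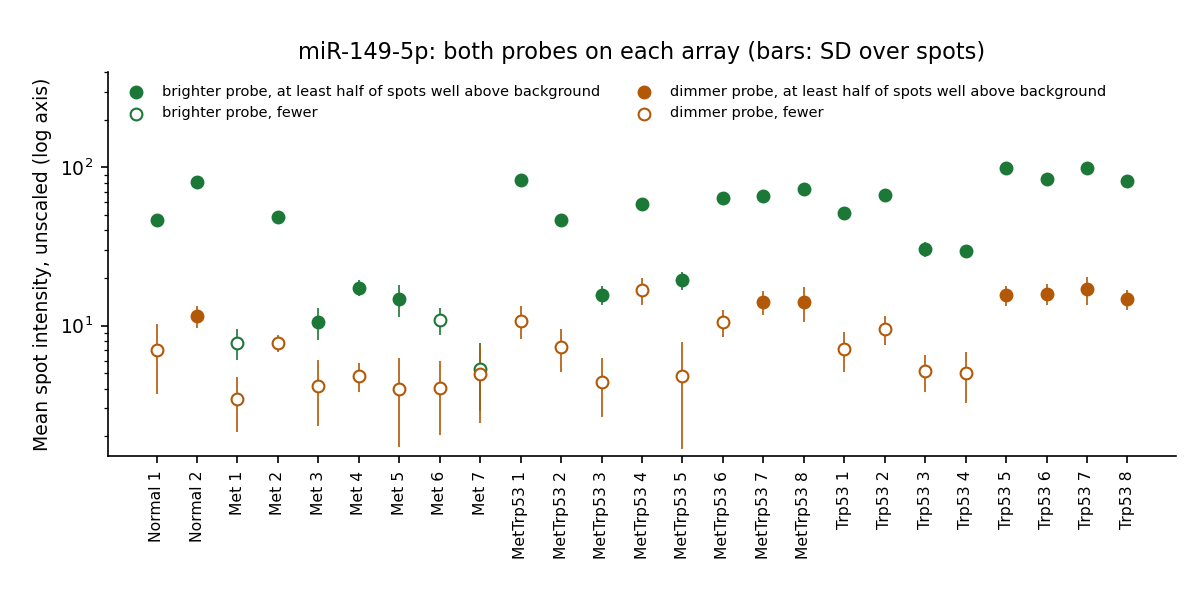
Mean unscaled spot intensity (log axis) of both miR-149-5p probes on each of the 25 arrays, with bars for the SD over spots; filled points have at least 0.5 of their spots well above background. The brighter probe is filled on 4 of 7 Met arrays and on every other array, and the dimmer probe on 7 arrays in all.

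For comparison between arrays each probe was divided by the array's 75th percentile over 221 probes detected everywhere, set to a floor of 0.0212 of that percentile and put on a log2 scale, and the 2 probes were averaged. The lowest level this can give is 3.54. The percentile ranged from 279 to 738 intensity units on Met arrays, from 363 to 909 on MetTrp53, from 357 to 690 on Trp53 and from 572 to 837 on normal arrays, so these ranges overlapped. The brighter probe fell below the floor on 3 Met arrays and the dimmer probe on 17 of the 25 arrays. The averaged level therefore compresses differences, and the brighter probe alone is given beside it.

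Met tumours had the lowest levels of miR-149-5p and Trp53 tumours the highest, which is the pattern that chose this miRNA. The level in the normal pools was 4.51 and 4.63. In Met tumours the lowest level was 3.54, the median 3.67 and the highest 4.37, with 3 tumours at the floor. All 7 Met tumours lay below both normal pools, and the highest of them was the single spindloid one. In MetTrp53 tumours the levels ran from 3.83 through a median of 4.67 to 5.50. In Trp53 tumours they ran from 4.15 through a median of 4.98 to 5.31. The MetTrp53 and Trp53 ranges overlapped widely, and both spanned the normal pools.

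In order, the means were 3.76 ± 0.30 (SD, n = 7) in Met, 4.57 ± 0.09 (SD, n = 2) in normal gland, 4.59 ± 0.53 (SD, n = 8) in MetTrp53 and 4.90 ± 0.42 (SD, n = 8) in Trp53. The neighbours normal and MetTrp53, and MetTrp53 and Trp53, differed by less than the SD of either tumour group, with MetTrp53 minus Trp53 at -0.31. Met stood apart, which restates the choice of this miRNA: 6 of 7 Met tumours lay below all 8 Trp53 tumours and 5 of 7 below all 8 MetTrp53 tumours. How many other miRNAs separate these groups as far was not counted. The difference of Met from Trp53 was -1.14 on the log2 scale, the 15th lowest of the 330 miRNAs tested. In that comparison limma called 10.0 percent of miRNAs, 4.55 percent higher and 5.45 percent lower in Met. miR-149-5p was among the miRNAs fitted, so these shares are not free of it. Tumours are mixtures of cells, so fewer cells with the miRNA and less of it per cell cannot be told apart.

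With the brighter probe alone the level was 3.98 ± 0.61 (SD, n = 7) in Met, 5.50 ± 0.92 (SD, n = 8) in MetTrp53, 6.07 ± 0.66 (SD, n = 8) in Trp53 and 5.60 ± 0.18 (SD, n = 2) in normal gland. Trp53 tumours were 4.27-fold above Met tumours on that probe, a size that rests on the floor for 3 Met tumours. The dimmer probe gave a difference of 0.19 between the same groups. Over 14 alternative scalings, slides and subsets the Met minus Trp53 difference ran from -2.09 to -0.19. These reuse the values that chose the miRNA, so their shared sign is no support for the order. On the dimmer probe, which gave -0.19, all 7 Met tumours were at the floor, so a value above 0 was not possible. Within slides 1 to 5 the Met minus Trp53 difference was -1.25, -0.35, -1.34, -1.68 and -1.25. Each rests on few tumours, and slides 3 and 5 on a single Met and a single Trp53 tumour. Slide 2 held the spindloid Met tumour 2 and no spindloid Trp53 tumour. Among tumours that were neither spindloid nor intermediate it was -0.90.

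**Figure D2:**
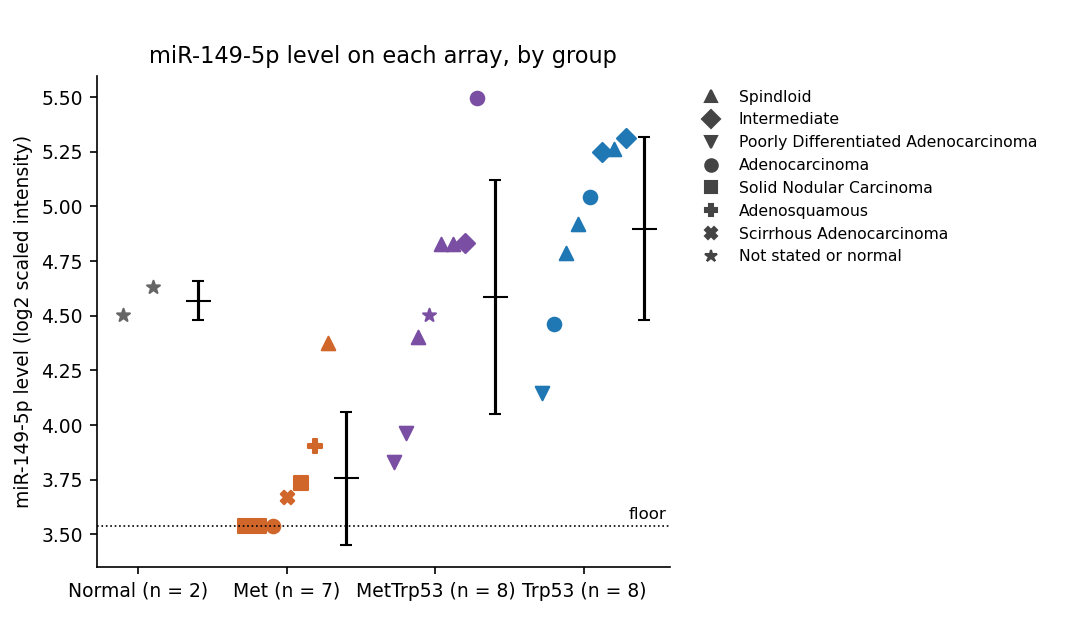
Level of miR-149-5p (log2 scaled intensity) on each array by group, with the symbol giving the stated pathology, bars giving mean and SD, and a dotted line at the floor of 3.54. The 7 Met tumours lie below both normal pools, and the MetTrp53 and Trp53 tumours spread to both sides of them.

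The mean over the tumour genotypes, which averages the low Met and high Trp53 levels that chose this miRNA, did not pass the test against normal gland. The mean of the 3 genotypes minus normal was -0.15 on the log2 scale (SE 0.31, 95 percent confidence interval -0.79 to 0.48, 23 tumours against 2 pools, limma adjusted p = 0.81), and an exact two-sided permutation test of the 23 tumours against the 2 pools gave p = 0.813. Of the tumours 10 lay above both pools, 13 below both and 0 between them. The mean thus combines Met tumours below the pools with Trp53 tumours of which 6 of 8 lay above. In the same comparison limma called 12.7 percent of the miRNAs. The direction depended on the setting, at 0.20 with normexp background correction and -0.42 with the brighter probe. The normexp setting added an offset of 50 intensity units and had no floor. Within slide 1 the value was 0.29 and within slide 3 it was -0.18. Without normal pool 2 the value was -0.09. The dimmer probe gave 0.11, but both pools were at the floor on that probe, so its difference could not fall below 0.

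The normal pools also carried more miRNAs of muscle, fat and endothelium. The log2 sum over 5 muscle miRNAs was 13.33 and 13.83 in the pools and at most 11.00 in any tumour, and that over 3 adipose miRNAs was 9.92 and 11.10 against at most 9.72. The sum over 2 endothelial miRNAs was 10.69 and 10.99, above the highest tumour at 10.40. Their part in the comparison of tumours with normal gland was not tested.

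Levels also varied with the stated pathology, which was itself unevenly spread over the genotypes. The level was 3.60 ± 0.11 (SD, n = 3) in solid nodular carcinomas, all of them Met tumours, 3.67 in the scirrhous adenocarcinoma and 3.91 in the adenosquamous tumour, also Met. In the 3 poorly differentiated adenocarcinomas, all with a Trp53 deletion, it was 3.98 ± 0.16 (SD, n = 3). These were the lowest 3 of the 16 Trp53-deleted tumours, at 3.83 and 3.97 in MetTrp53 and 4.15 in Trp53, a pattern singled out after the values were seen and not tested.

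The 4 adenocarcinomas covered the whole range of the series. The Met one was at the floor, the Trp53 ones were at 4.46 and 5.04, and the MetTrp53 one had the highest level of any tumour, 5.50. The 7 spindloid tumours, which have spindle-shaped cells, lay between 4.37 and 5.26 with a median of 4.83. None of these averaged levels was near the floor. On the dimmer probe alone, Met tumour 2, MetTrp53 tumour 2 and Trp53 tumour 1 were at it. Intermediate tumours were at 4.83 in MetTrp53 and at 5.25 and 5.31 in Trp53, with a mean of 5.13 ± 0.26 (SD, n = 3).

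**Figure D3:**
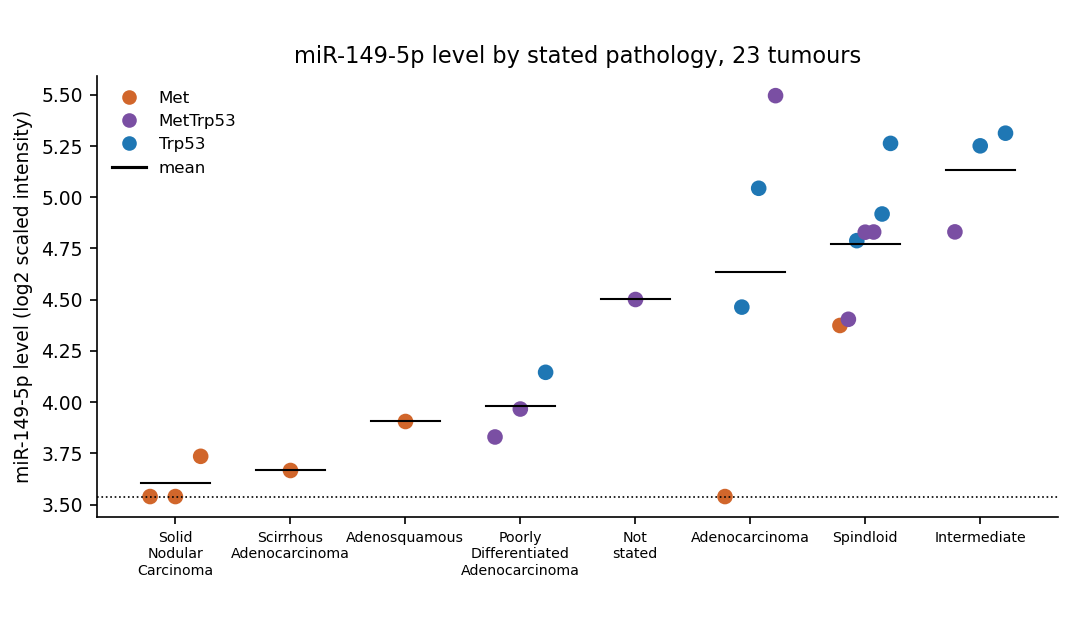
Level of miR-149-5p (log2 scaled intensity) in the 23 tumours by stated pathology, in order of mean level (lines), coloured by genotype, with a dotted line at the floor. Poorly differentiated tumours sit between 3.83 and 4.15, and spindloid tumours between 4.37 and 5.26.

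Spindloid tumours had a mean level of 4.77 ± 0.31 (SD, n = 7) and the other tumours with a stated pathology 4.28 ± 0.72 (SD, n = 15). With genotype as a covariate the difference was 0.26 on the log2 scale (SE 0.20, 95 percent confidence interval -0.16 to 0.69, limma adjusted p = 0.688), which did not pass. An exact two-sided permutation test within genotypes gave p = 0.249. No miRNA passed in this comparison by limma, which called 0 percent of 330 with 41 at an unadjusted p under 0.05. The value was 0.43 with intermediate tumours left out (limma adjusted p = 0.327), 0.52 with the brighter probe and 0.46 in the authors' deposited table. It was 0.0023 with the dimmer probe and 0.16 with a floor 2 times higher, and it turned to -0.075 with normexp. Within the 5 slides it ran from 0.16 to 1.27, with no genotype term.

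By genotype, the spindloid Met tumour was at 4.37 against 3.54 to 3.91 in the other Met tumours. The 3 spindloid MetTrp53 tumours were at 4.69 ± 0.25 (SD, n = 3) and the 3 spindloid Trp53 tumours at 4.99 ± 0.25 (SD, n = 3). Both sets lay inside the range of the other tumours of their genotype. With only the Trp53-deleted tumours, or without the spindloid Met tumour 2, the spindloid difference was 0.15 (SE 0.26, limma adjusted p = 0.949 over the Trp53-deleted tumours).

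Parity was compared in the 13 Trp53-deleted tumours that state it, since no Met tumour was stated to be nulliparous. The level was 4.98 ± 0.77 (SD, n = 4) in multiparous and 4.63 ± 0.41 (SD, n = 9) in nulliparous mice. Within genotype the difference was 0.29 (SE 0.31, 95 percent confidence interval -0.39 to 0.96, limma adjusted p = 0.805; exact two-sided permutation p = 0.357). The 2 multiparous MetTrp53 tumours were the lowest and the highest of their genotype, at 3.83 and 5.50. Without the latter, MetTrp53 tumour 1, the difference was -0.0033, without MetTrp53 tumour 3 it was 0.69, and without Trp53 tumour 3 it was 0.14. Within slides 1, 3 and 4 it was 0.58, -1.21 and 0.89, from few tumours and with no genotype term, so genotype enters these values. No miRNA passed here by limma, which called 0 percent, with 16 at an unadjusted p under 0.05.

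The other arm followed miR-149-5p only weakly over the tumours. miR-149-3p was detected on all 25 arrays. The dimmer of its probes was below the floor on most arrays, so its averaged level compresses differences as that of miR-149-5p does. Its level was 3.89 and 4.36 in the normal pools, 3.64 to 5.17 with a median of 4.34 in Met, 4.36 to 5.68 with a median of 4.67 in MetTrp53, and 4.04 to 5.39 with a median of 4.59 in Trp53. These ranges overlapped in every pair of tumour groups. Met tumour 7, where miR-149-5p was not detected, had a miR-149-3p level of 5.17, rank 3 of the 23 tumours. MetTrp53 tumour 1, the highest in miR-149-5p, ranked 18th in miR-149-3p. Other tumours were low in both arms. The solid nodular Met tumours 1, 3 and 6 ranked 23, 21 and 22 in miR-149-3p and 19, 21 and 21 in miR-149-5p. Trp53 tumour 3 was the lowest Trp53 tumour in both. Over the 23 tumours, which share genotypes, the arms correlated at r = 0.27 and rho = 0.18, given as a description. None of the tests was passed by miR-149-3p: tumours minus normal was 0.47 (SE 0.34, limma adjusted p = 0.46), spindloid minus other 0.28 (SE 0.22, limma adjusted p = 0.694) and multiparous minus nulliparous -0.22 (SE 0.22, limma adjusted p = 0.805).

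**Figure D4:**
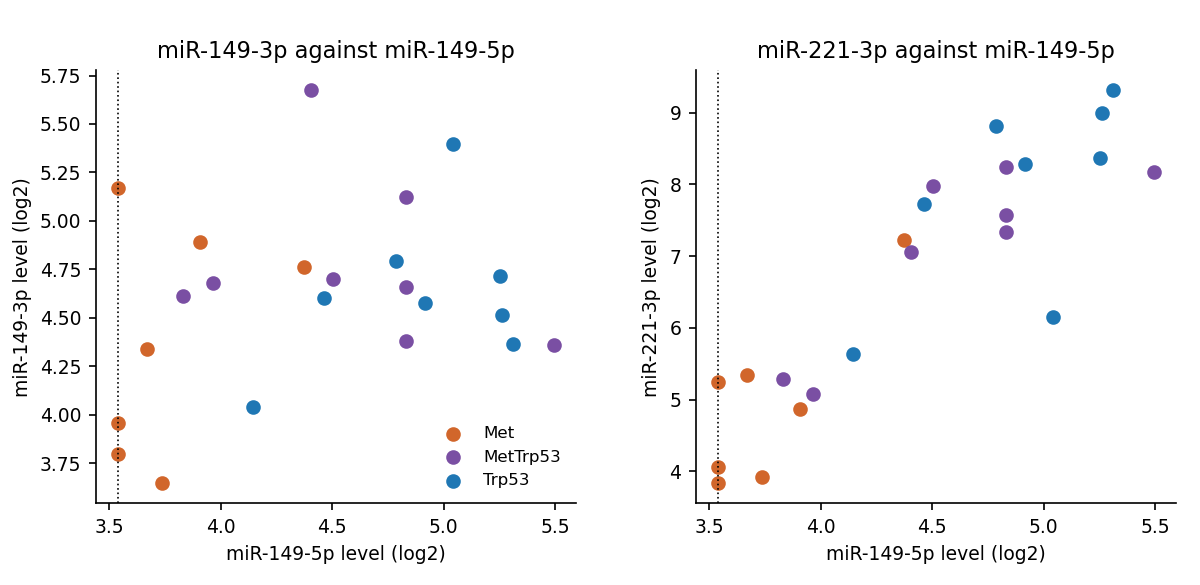
Level (log2) of miR-149-3p (left) and miR-221-3p (right) against that of miR-149-5p in the 23 tumours, coloured by genotype, with a dotted line at the floor. The arms of miR-149 show little relation (rho = 0.18), while miR-221-3p follows miR-149-5p (rho = 0.86).

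The miRNAs most like miR-149-5p over the tumours were miR-221-3p (Spearman rho = 0.86) and miR-222-3p (0.86), which are transcribed together and repress the cell cycle inhibitor p27. Next came miR-99b-5p (0.80), miR-511-3p (0.78) and miR-125a-5p (0.75). miR-99b and miR-125a lie in one cluster on chromosome 17, and miR-511 lies within Mrc1, the gene of the macrophage mannose receptor. These are descriptions over 23 tumours that share genotypes and a scaling, so a common order of genotypes alone raises them. With normexp background correction, which added an offset of 50, 0 of these 5 stayed among the highest 5. In levels, miR-221-3p went from 4.93 ± 1.19 (SD, n = 7) in Met through 7.09 ± 1.25 (SD, n = 8) in MetTrp53 to 7.91 ± 1.35 (SD, n = 8) in Trp53.

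When each tumour was set against the mean of its own genotype, miR-221-3p and miR-222-3p again led, with rho = 0.77 and 0.76. miR-324-5p, which represses members of the Hedgehog pathway, followed with 0.74. The value of miR-125a-5p dropped from 0.75 to 0.49 on this measure. Opposite to miR-149-5p ran miR-148a-3p (rho = -0.81), which represses the DNA methyltransferase Dnmt1, followed by miR-200b-5p (-0.78) and miR-101c (-0.78). The last 2 were close to the floor, with means of 3.59 and 3.54 in Trp53 tumours. miR-148a-3p went from 9.14 ± 1.44 (SD, n = 7) in Met to 5.61 ± 1.21 (SD, n = 8) in Trp53.

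Other p53-linked miRNAs did not share one direction between Met and Trp53 tumours. Of a list of 12 that are known p53 targets or p53-responsive, 10 were tested, and miR-34b-3p and miR-215-5p were not. In Met relative to Trp53 tumours 1 was higher, miR-34a-5p by 1.38 (SE 0.31, limma adjusted p = 0.00569), a direct p53 target. The 1 that was lower was miR-16-5p, at -0.58 (SE 0.14, limma adjusted p = 0.00927), whose processing p53 promotes. Over all 330 miRNAs, 4.55 percent were called higher and 5.45 percent lower in this comparison. Under 4 alternatives (quantile normalisation, a floor 4 times lower, scaling by the percentile of every mouse probe, and the authors' deposited table) 3 list members were called. The median difference of the 10 was 0.01, as over all 330 miRNAs (0.01), and 5 of 10 values were below 0. Some list members lay close to the floor, where differences are compressed. Means in Met and Trp53 tumours were 3.71 and 3.71 for miR-192-5p, and 3.59 and 3.57 for miR-194-5p. The list median lies between their differences, -0.00051 and 0.015, so it cannot show whether the list had a common direction. The called miR-34a-5p (means 7.97 and 6.60) and miR-16-5p (8.47 and 9.05) were far above the floor.

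Markers of other cells were summed per list and described without a test. The ranges of Met and Trp53 tumours overlapped in every list. For the adipose list they were 7.48 to 9.72 and 7.34 to 9.66. All list members were tested apart from miR-124-3p. Summed over the 7 epithelial miRNAs of a list, led by the miR-200 family, the log2 level ran from 6.37 to 12.23 in Met and from 6.35 to 11.22 in Trp53 tumours, with means of 10.76 and 7.48. The sum of 6.35 is that of all 7 at the floor. The sum over 6 mesenchymal miRNAs had means of 9.08 in Met and 10.66 in Trp53, and that over 5 leukocyte miRNAs 8.72 and 9.90. Not all mesenchymal members had the order of their sum. Means in Met and Trp53 were 5.72 and 4.88 for miR-143-3p, and 4.02 and 3.57 for miR-145-5p. Over 6 neural miRNAs the means were 6.84 and 7.26, and the defining neuronal miR-124-3p was detected on no array. The endothelial means were 8.68 in Met and 9.55 in Trp53, the adipose means 8.76 and 8.37, and the muscle means 6.79 and 7.04. The lowest muscle sum in both groups, 5.86, is likewise that of all its members at the floor. The part of these cells in the order of miR-149-5p was not tested.

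**Figure D5:**
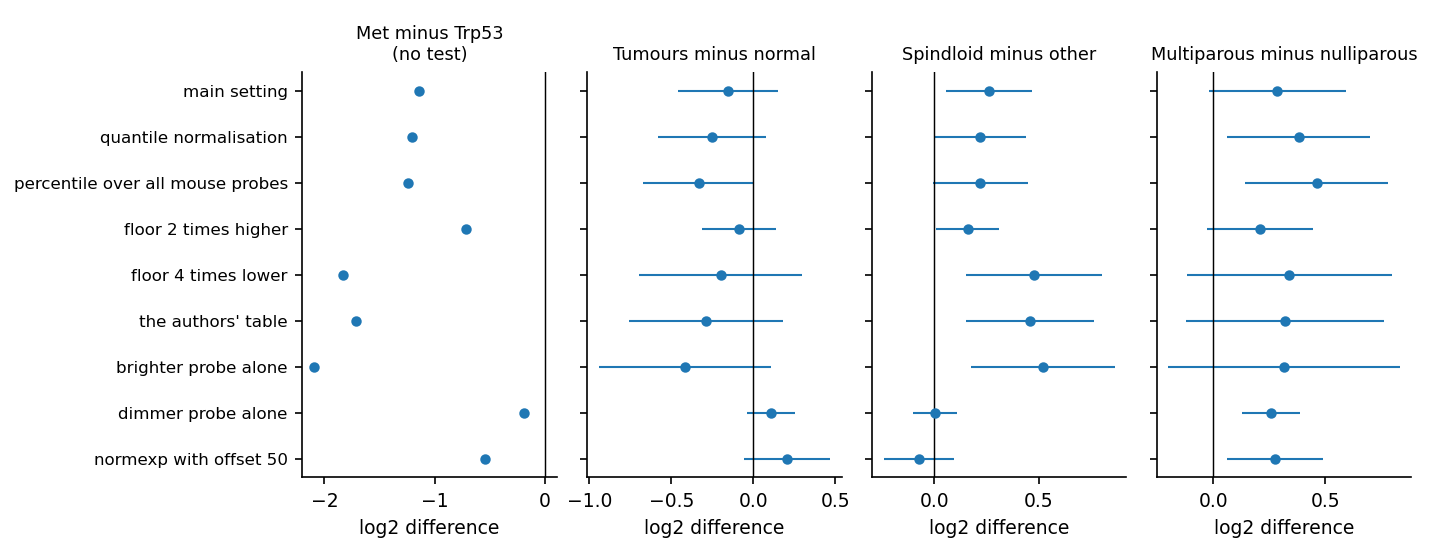
Difference in miR-149-5p (log2, x axes) for 4 comparisons under the main setting and 8 alternatives, with bars for the limma SE where a test was made. The Met minus Trp53 difference, the contrast that chose the miRNA, lies between -2.09 and -0.19, and with the dimmer probe it could not rise above 0. The signs of tumours minus normal and of spindloid minus other depend on the setting.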

How the data were processed

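Per the labels, total RNA of snap-frozen tissue was labelled with Cy3 for Agilent miRNA arrays. Per the file headers, the deposited intensity values of each spot come from Feature Extraction version 10.7.3.1, background-subtracted but not normalised between arrays. The authors' deposited table holds log2 values per spot, and the submitters' processing notes name RMA with no role. Against scanner values its offset differed between arrays (-0.55 to 0.91), and its centring is unknown. Flags for outlier spots, spots well above background and detected miRNAs are other values deposited with the intensities.

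Spots not marked as outliers were averaged per probe (0 mouse spots were saturated). The 330 miRNAs tested were those detected in both normal pools or in 7 or more tumours. Tests used limma 3.58.1 in R 4.3.3 with Benjamini-Hochberg adjustment over all 330 and a threshold of 0.05, and the fits were tested on simulated data. miRNAs at 1 value on all fitted arrays were kept out of the variance estimate and given a p-value of 1. The number of arrays limits precision. Replicates were numbered in accession order. Arrays correlated at 0.67 to 0.98, and none were duplicates. Normexp used spot medians, as the scanner files hold no spot means, with an offset of 50 and no floor. Without that offset, the brighter miR-149-5p probe had means of 5.33 to 99.7 in the main setting over the tumours. The part of the offset in the values under normexp was not tested. Named miRNAs were the arms of miR-149, the 5 with the highest and 3 with the lowest rho, the 3 with the highest rho of deviations, and called or untested members of the p53 list. Some members of the marker lists are named as well. The members and lists were chosen with earlier results of these data known.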

Additional observations from a re-analysis of the deposited data

How the results depend on the processing

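None of the 3 tests of miR-149-5p passed under any alternative that was run, and the limma adjusted p over them was at least 0.306. Tumours minus normal turned from -0.15 to 0.20 with normexp and 0.29 within slide 1, and was -0.22 to -0.09 without either pool. With the dimmer probe it was 0.11, but both pools were at the floor there, so a negative value was not possible. Spindloid minus other turned from 0.26 to -0.075 with normexp and ran from 0.15 to 0.38 without single tumours. Multiparous minus nulliparous turned from 0.29 to -1.21 within slide 3 and to -0.0033 without MetTrp53 tumour 1, and ran from -0.0033 to 0.69 without single tumours. Within-slide values of these 3 results were added after the data were seen and carry no genotype term. The cause of the changes above was not tested.

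Met minus Trp53 (-1.14) moved to -0.55 with normexp, -1.72 in the authors' table, -2.09 with the brighter probe, -0.19 with the dimmer probe, -1.84 with a floor 4 times lower, -0.72 with a floor 2 times higher, and -0.35 and -1.68 within slides 2 and 4. Leaving out single tumours gave -1.25 to -1.08. On the dimmer probe every Met tumour was at the floor, so Met could not lie above another group there. MetTrp53 minus Met (0.83) moved to 0.33, 1.53, 0.13, 1.42 and 0.47 with normexp, the brighter probe, the dimmer probe, the lower and the higher floor, with 0.70 to 0.94 without single tumours, and MetTrp53 minus Trp53 (-0.31) ran from -0.44 to -0.20 without single tumours and from -0.57 (brighter probe) to -0.055 (dimmer probe) over the other alternatives. Of the 5 miRNAs with the highest rho, 0 stayed among the highest 5 with normexp, 3 with the percentile over all mouse probes, 2 with the dimmer probe and 3 for deviations from genotype means. Called p53-list members numbered 2 to 3 without single tumours and 2 with no detection filter. miR-149-5p was not detected on all arrays, so that filter gave it no value. Averaging tumours of a shared title number gave -0.12 for tumours minus normal and 0.24 for spindloid minus other, where the pair of a spindloid and another tumour was kept apart, and could not be applied to parity. No paired analysis was possible because the labels give the groups no shared replicate numbers.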
